A study of Mus musculus with 18 samples.

Results

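The regions described here are retained tiles, which are autosomal windows of 1 kb that kept high DNA methylation in female mouse embryonic stem cells (ESC). A tile was called retained when its mean level was 70% or more over the 6 mouse embryonic fibroblast (MEF) samples and 70% or more in each of the 4 female ESC samples. Of 33545 tiles measured in every sample, 25766 were autosomal with fewer than 30 CpGs, and 12493 of these were high in MEF. These are called MEF-high tiles. Retained tiles numbered 475, or 3.80% of MEF-high tiles, and 1448 MEF-high tiles were below 30% in each female ESC sample and are called lost. For 466 retained tiles, a lost tile was found whose MEF mean lay within 1 point, and 9 retained tiles had no such match. The remaining 10570 MEF-high tiles fell between both classes.

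The measurements were made by reduced representation bisulfite sequencing, which enriches short CpG-rich restriction fragments, and in which a methylated cytosine resists conversion and is still read as cytosine. The 18 samples comprised 2 of iPSC (induced pluripotent stem cells, female), 4 of female ESC, 2 of male ESC, 2 each of female SSEA1+ and SSEA1- cells, 4 of female MEF and 2 of male MEF. SSEA1 is a surface antigen carried by mouse pluripotent cells, and the series title places the samples in a study of X chromosome reactivation during reprogramming. The labels give cell type and sex, and no strain, passage or culture medium, and no expression was measured to check them.

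Cytosine methylation at CpGs is copied to the new strand after replication by DNMT1 with its partner UHRF1, and is lost over divisions where that copying is weak. Female mouse ESC carry both X chromosomes in an active state and are known for low methylation across the genome. Some young retrotransposons are known to keep methylation in such cells. The genes and repeats at the tiles below were not assigned here, because the gene tables in hand are on another genome build than the files (mm9).

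Samples held 11424460 to 62920167 reads in total over CpGs, and the median depth of a retained tile in a sample was 121 reads, with 15 as the lowest. A tile of 56 reads at the 70% threshold has a 95% Wilson interval of 56.7 to 80.1%, from counting error alone. By how often both strands of a CpG were read, the libraries formed 3 technical types. Type A held all ESC, female MEF 1 and male MEF 2, type B held all SSEA1+ and SSEA1- libraries, female MEF 2 and male MEF 1, and type C held both iPSC, female MEF 3 and female MEF 4. The type is set from the files and is not in the labels. The iPSC share no type with ESC or SSEA1+ cells, so for these comparisons type can be adjusted for only through the MEF libraries, which cover all 3 types. Across tiles, the levels of female MEF 3 correlated with those of female MEF 4 at a Pearson r of 0.995, above the 0.969 to 0.983 of the other female MEF pairs. Over 4059 tiles of very low level, the iPSC libraries had median levels of 3.36% and 3.57%, against at most 0.840% in any other library. The part of that offset in iPSC values was not tested.

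The groups that chose the tiles are given first, as a description with no test. Matched retained tiles averaged 76.9 to 78.3% in the female ESC samples and 88.3 to 91.7% in the MEF samples. Their matched lost tiles averaged 18.6 to 19.4% in female ESC and 88.7 to 90.2% in MEF. At the edge of the rule, the retained tile on chromosome 3 from 151620001 to 151621000 (22 CpGs) stood at 70, 71.3, 74.5 and 74.3% in the female ESC samples. The tile just outside on chromosome 11 from 46418001 to 46419000 (19 CpGs) stood at 74.8, 76.3, 69.9 and 72.1%. Both carry the repeated CpG spacing described below.

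The difference between retained and lost tiles was also present in male ESC and iPSC, which the rule did not use, and was small in SSEA1+ and SSEA1- cells. In iPSC, retained tiles stood at 77.8% in both samples and matched lost tiles at 29.0 and 27.3%. In male ESC, retained tiles stood at 82.0 and 81.7% and matched lost tiles at 41.7 and 42.2%. Retained tiles were higher in each of these 4 samples. In SSEA1+ cells, retained tiles stood at 87.3 and 86.5% and matched lost tiles at 84.1 and 81.2%. In SSEA1- cells, the levels were 89.0 and 88.8% for retained tiles and 86.8 and 86.5% for matched lost tiles.

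**Figure D1:**
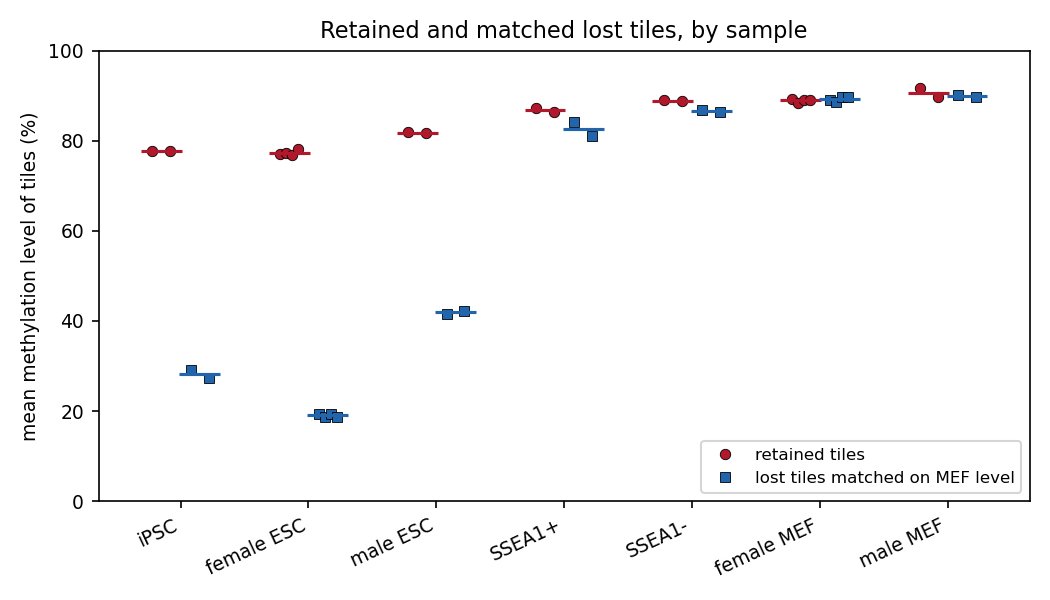
Mean methylation level (%) of 466 retained tiles (red circles) and 466 lost tiles matched on MEF level (blue squares) in each sample, grouped by cell type. Each point is 1 sample and each bar a group mean. Lost tiles stand below 43% in iPSC, female ESC and male ESC and above 81% in SSEA1+, SSEA1- and MEF samples, while retained tiles stand above 76% in every sample.

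As a difference, retained minus matched lost, this was 49.6 ± 1.24 points in iPSC, 39.9 ± 0.623 in male ESC, 4.25 ± 1.48 in SSEA1+ and 2.30 ± 0.0615 in SSEA1- cells (SD, n = 2 each). Female ESC, which chose the tiles, had 58.4 ± 0.906 points (SD, n = 4), and female MEF, on which tiles were matched, had -0.348 ± 0.381. After subtracting the difference in MEF libraries of the same technical type, the values were 50.2 points in iPSC, 39.9 in male ESC, 3.69 in SSEA1+ and 1.73 in SSEA1- cells. Over the 8 samples outside the rule, the mean difference was 24.0 points, with retained tiles higher in 8 of 8 samples (2-sided exact sign-flip test, p = 0.00781, the smallest possible with 8 samples, and 0.0312 when adjusted over 4 tests by the Benjamini-Hochberg method). On leaving out any of the 8 samples, the adjusted exact p was 0.0571, the smallest value that the samples left allow. It was 0.109 at thresholds of 80% and 20%, where the difference was 31.6 points. The difference was 41.5 points larger in iPSC and male ESC than in SSEA1+ and SSEA1- cells (2-sided exact permutation test, p = 0.0286, the smallest possible, adjusted p = 0.0571). It was 9.68 points larger in iPSC than in male ESC and 1.96 points larger in SSEA1+ than in SSEA1- cells. For 2 against 2 samples, the exact permutation p cannot go below 0.333, which both comparisons had. The sign-flip test counts 2 samples each of 4 groups as 8 separate units, and its p rests on all 8 signs and not on the spread within a group. The mean of 24.0 points joins unlike groups and describes none of them. Nothing in the labels ties the samples of a group to separate cultures or animals, and the spread between samples may be technical.

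The CpGs of many retained tiles had the same spacing. Runs of 3 successive distances between neighbouring CpGs, covering at least 60 bases and found in at least 30 tiles, were linked where they shared at least 25% of their tiles. This gave 48 groups of tiles called spacing families. The grouping used CpG positions alone and no methylation value, but it was set up after the retained tiles had been seen. In all, 254 of 475 retained tiles and 239 of 466 matched lost tiles belonged to a family. The share in no family was 46.5% of retained and 48.7% of matched lost tiles. It was 59.9% of MEF-high tiles and 79.7% of all autosomal tiles with fewer than 30 CpGs.

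The family with the most retained tiles is called the 208-base array, after the commonest distance between 2 of its CpGs. Its CpGs followed each other at distances such as 24, 132 and 7 bases, or 29, 24 and 132 bases. It held 1733 tiles with fewer than 30 CpGs on autosomes, of which 1724 were MEF-high. Of those, 201 were retained (42.3% of all retained tiles), 0 were lost, and 1523 fell between. A further family is called the 212-base array, with distances such as 21, 12 and 45 bases and 45, 25 and 82 bases. It held 1994 tiles, of which 1933 were MEF-high. Of those, 0 were retained and 739 were lost, and the array made up 235 of the 466 matched lost tiles (50.4%). Shares of the whole MEF-high set were 13.8% for the 208-base array and 15.5% for the 212-base array.

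**Figure D2:**
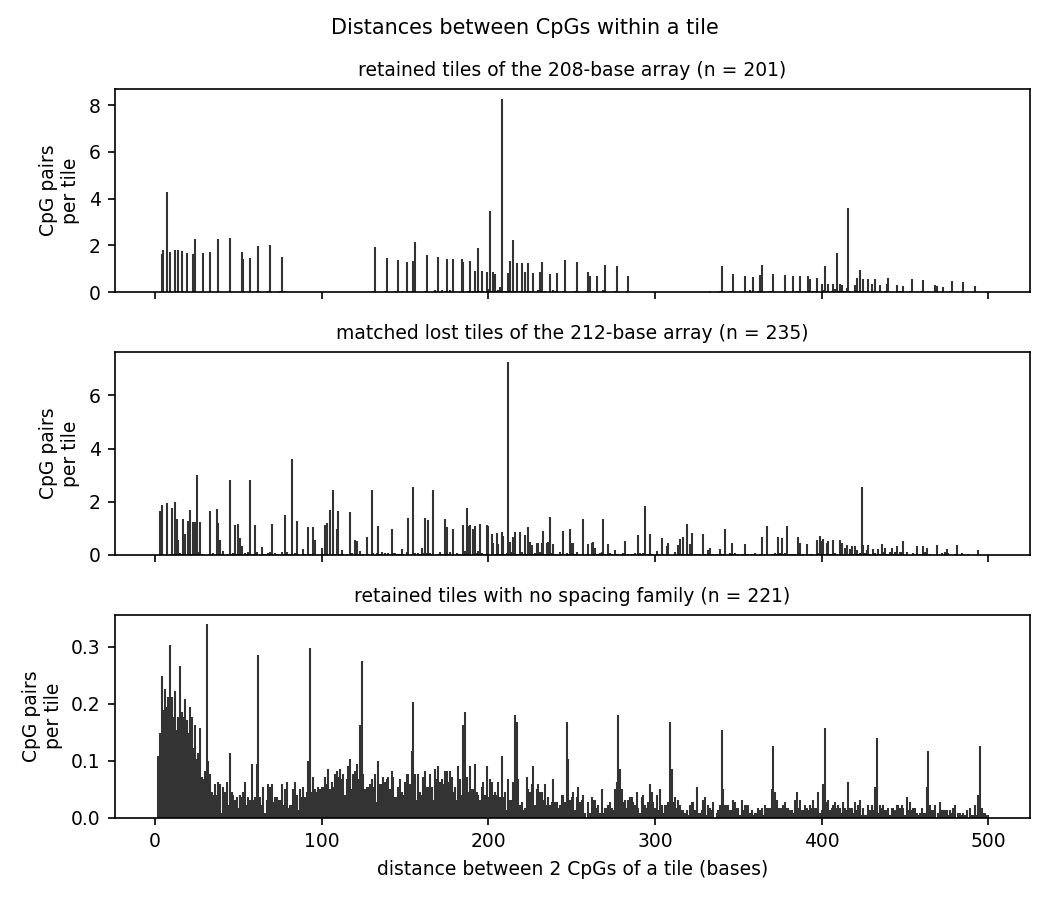
Number of CpG pairs per tile (vertical axis) at each distance in bases up to 500 (horizontal axis), for retained tiles of the 208-base array (top), matched lost tiles of the 212-base array (middle) and retained tiles in no family (bottom, on a smaller scale). The tallest lines stand at 208 bases and at 212 bases in the arrays, and lines 31 bases apart in the bottom panel come from few tiles.

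Mouse genomes hold families of repeated elements with tandemly repeated units, and no repeat annotation was used here, so both arrays go without a name. Reads from near-identical copies can be placed at the wrong copy. The sources used here do not give the aligner or its rule for such reads, so a level is firmer for the array as a whole than for 1 of its tiles.

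Taken as a whole, with no choice of its tiles by level, the 208-base array had about the same level in iPSC and in ESC of both sexes. The array itself was singled out by its number of retained tiles, which rests on the female ESC levels. Its 1733 tiles averaged 69.7 and 70.2% in iPSC, 70.1, 68.6, 69.8 and 70.6% in female ESC, and 69.9 and 69.7% in male ESC. They averaged 86.2 and 86.4% in SSEA1+ cells, 87.3 and 87.2% in SSEA1- cells, 86.9 to 88.2% in female MEF, and 89.97 and 88.1% in their male counterparts. Every iPSC and ESC sample, at 70.6% or less, thus stood below every other sample, at 86.2% or more.

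The 212-base array was lower than the 208-base array in every sample, and its levels in female ESC lay below those in male ESC. Its 1994 tiles averaged 28.3 and 27.5% in iPSC, 27.6, 27.3, 26.8 and 27.7% in female ESC, and 40.3 and 40.4% in male ESC. They averaged 80.8 and 79.6% in SSEA1+ cells, 82.2 and 82.1% in SSEA1- cells, 84.4% ± 0.974 in female MEF (SD, n = 4) and 84.6% ± 1.25 in male MEF (SD, n = 2).

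**Figure D3:**
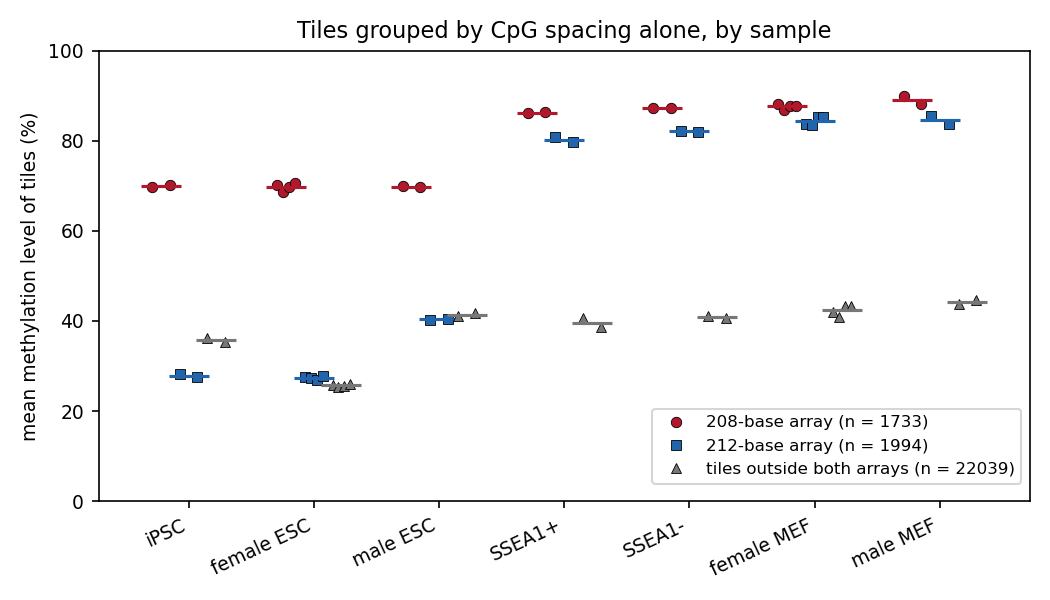
Mean methylation level (%) of tiles grouped by CpG spacing alone, in each sample: the 208-base array (red circles), the 212-base array (blue squares) and all other autosomal tiles with fewer than 30 CpGs (grey triangles). Bars are group means. The 208-base array stands at 68.6 to 70.6% in all iPSC and ESC samples, and the 212-base array is lower in iPSC and female ESC than in male ESC.

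The sexes are given side by side in ESC, where all 6 libraries were of type A. Both arrays were singled out by their numbers of retained and lost tiles, which rest on the female ESC levels, so these values are a description with no test. Female minus male ESC was -0.0280 points for the 208-base array (69.8% ± 0.839 and 69.8% ± 0.0952, SD, n = 4 and 2), and its sign was not stable, with -2.92 to 1.57 points under other settings. It was -13.0 points for the 212-base array (27.4% ± 0.395 and 40.4% ± 0.109, n = 4 and 2). For tiles outside both arrays it was -15.7 points (25.7% ± 0.258 and 41.4% ± 0.519, n = 4 and 2).

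Calls for single tiles, likewise a description, were few in the 208-base array. Across the whole table, 26.8% of tiles were called lower and 0.0358% higher in female than in male ESC. A tile was called at an adjusted p under 0.05 in a quasi-binomial model fitted to all tiles and a difference of at least 20 points. In the 208-base array, 41 of 1733 tiles were lower (2.37%) and 2 were higher. In the 212-base array 221 of 1994 were lower (11.1%), and among tiles in no family 36.8% were lower. With no minimum difference, 6.64% of 208-base array tiles were lower, and the other shares changed their order, at 53.3% for the 212-base array, 46.6% for tiles in no family and 38.8% for all tiles.

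Within the 208-base array, retained tiles and other MEF-high tiles lay within 2 points of each other in every iPSC and male ESC sample. Retained tiles of the array stood at 70.6 and 71.7% in iPSC, against 69.8 and 70.2% for its other MEF-high tiles. In male ESC they stood at 69.6 and 69.5%, against 70.1 and 69.9% for the other MEF-high tiles. Retained tiles were 1.21 to 1.74 points higher than the others in SSEA1+, SSEA1- and MEF samples, and MEF had entered the rule. Across the 201 retained array tiles, Pearson correlations between pairs of female ESC samples were -0.0763 to 0.0409, as a description of tiles all chosen by those samples. Across all 1733 array tiles they were 0.302 to 0.368, and across the 7482 MEF-high tiles in no family they were 0.787 to 0.835. Array tiles varied with a standard deviation of 7.63 to 8.91 points in female ESC samples, where counting error alone gives 5.26 to 6.86 points.

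Retained tiles in no family were higher than other MEF-high tiles in all 8 samples outside the rule. There were 221 of them, and they stood at 83.3 and 82.6% in iPSC, against 64.7 and 63.0% for the other MEF-high tiles in no family. In male ESC they stood at 91.5 and 90.6%, against 77.6 and 78.4%. In SSEA1+ cells they stood at 86.2 and 84.7%, against 80.9 and 77.9%, and in SSEA1- cells at 88.6 and 88.3%, against 82.8 and 82.4%. In MEF, which chose the tiles, they were 3.33 to 5.21 points higher. Across these 221 tiles the correlation of levels was 0.470 between the male ESC samples and 0.736 between the iPSC samples. For retained tiles of the 208-base array the same values were 0.193 and 0.0616, and for the whole array of 1733 tiles 0.405 and 0.611.

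**Figure D4:**
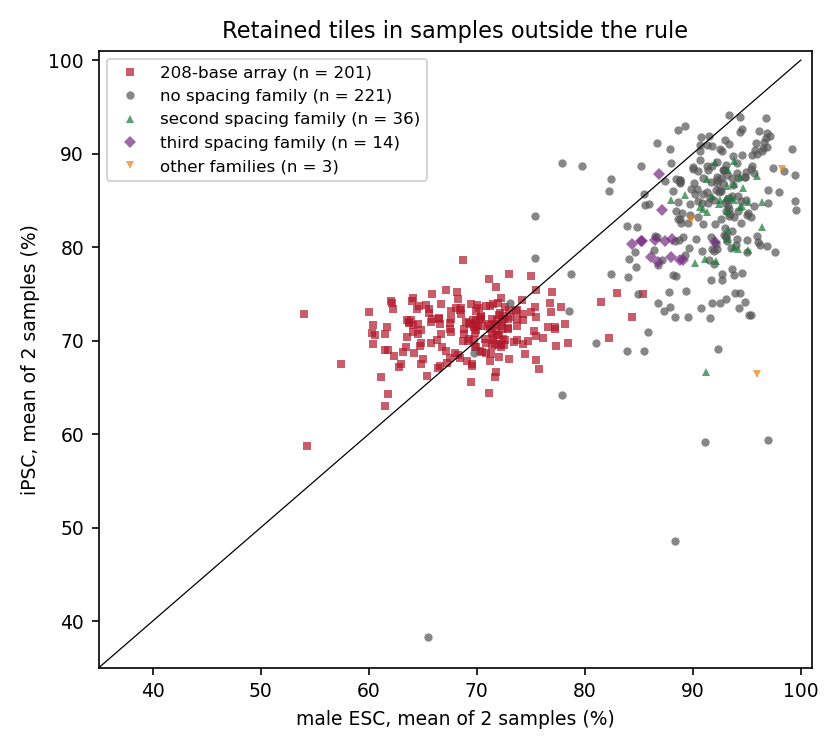
Level (%) of each of the 475 retained tiles in male ESC (horizontal axis) and iPSC (vertical axis), each the mean of 2 samples, by spacing family. The line marks equal levels. Array tiles (red squares) average 71.1% in iPSC and 69.5% in male ESC, and retained tiles outside the array 82.9% in iPSC and 91.1% in male ESC.

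Other families held smaller numbers of retained tiles. In the second family, with distances of 24, 5 and 76 bases and 83, 109 and 298 bases, 36 of 52 MEF-high tiles were retained (69.2%). All 53 of its tiles, whatever their level, averaged 82.4% ± 0.124 in iPSC, 75.8% ± 0.547 in female ESC, 91.3% ± 0.192 in male ESC and 90.02% ± 0.612 in female MEF (SD, n = 2, 4, 2 and 4). In the third family, with distances of 14, 5 and 171 bases, 14 of 38 MEF-high tiles were retained (36.8%). All 40 of its tiles averaged 76.9% ± 1.47 in iPSC, 70.1% ± 0.282 in female ESC and 84.1% ± 0.838 in male ESC. Both families thus stood lower in female than in male ESC, by more than the spread between samples, and this was not tested. The remaining 3 retained tiles in a family lay in others.

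The choice of tiles was checked by choosing them with 3 female ESC samples and reading the fourth. Each choice gave 675 to 763 tiles, of which 62.3 to 70.4% also reached 70% in the sample left out. For tiles of the 208-base array this was 52.6 to 64.0%, and for tiles outside it 71.9 to 76.8%. The mean level in the sample left out was 72.2 to 74.1%, against 76.9 to 77.2% in the 3 samples used. With the whole analysis redone without female ESC 2 there were 780 retained tiles, of which 393 were in the array, and without female ESC 4 there were 732 and 333.

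The count also moved with the read minimum and the thresholds. At a minimum of 10 reads per CpG, 12596 tiles remained, and the array fell to 81 MEF-high tiles. There were then 52 retained tiles, 3.60% of MEF-high tiles, and 4 of them (7.69%) lay in the array. At thresholds of 80% and 20%, 24 tiles were retained and 0 lay in the array. The share of retained tiles in the 208-base array thus holds for the 70% threshold, which lies next to the mean of the array, and for a minimum of 5 reads.

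Across MEF-high tiles outside both arrays, levels in male ESC and iPSC followed the level in female ESC without a break at 70%. Tiles of 10 to 20% in female ESC averaged 31.4% in iPSC and 44.8% in male ESC (384 tiles). Tiles of 50 to 60% averaged 70.8% in iPSC and 85.1% in male ESC (2228 tiles). Tiles of 80 to 90% averaged 85.4% in iPSC and 91.8% in male ESC (109 tiles). The same groups of tiles averaged 74.2, 81.4 and 86.4% in SSEA1+ cells and 83.04, 84.2 and 90.1% in female MEF. Male ESC levels passed those of female MEF from the 50 to 60% group upward, but not those of male MEF in any group up to 90%. Male MEF averaged 86.5% in the 50 to 60% group and 92.0% in the 80 to 90% group. Only 1 tile stood above 90% in female ESC.

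**Figure D5:**
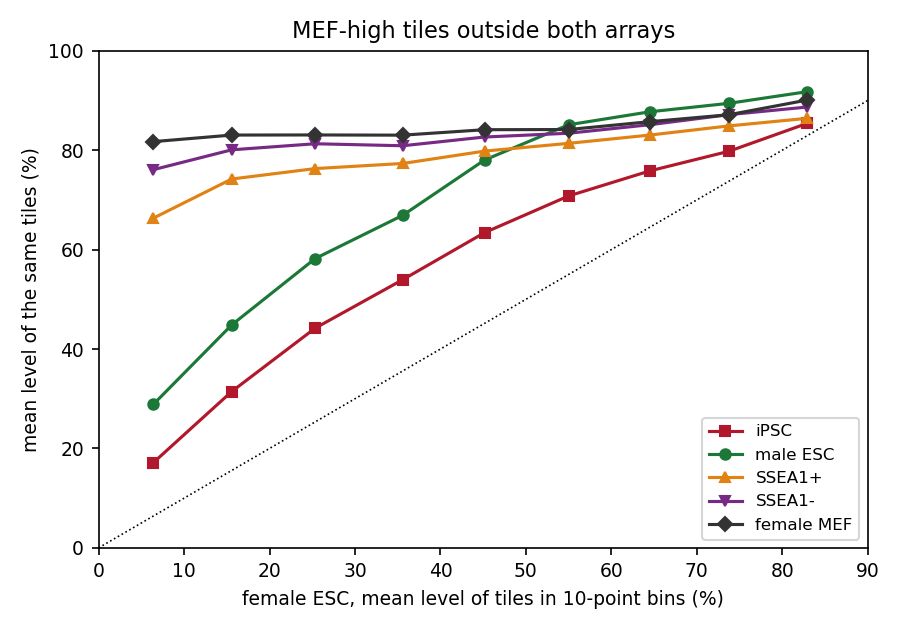
Mean level (%) in iPSC, male ESC, SSEA1+, SSEA1- and female MEF (vertical axis) of MEF-high tiles outside both arrays, in groups of 10 points of the female ESC mean (horizontal axis). Groups of at least 20 tiles are shown, and the dotted line marks equal levels. iPSC and male ESC levels climb across the whole range, and those of SSEA1+, SSEA1- and MEF climb less.

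Tile calls were then read in comparisons of groups that the rule did not use. Of retained tiles, 10 of 475 were lower in iPSC than in male ESC (2.11%) and 0 higher, where the whole table had 9.16% lower and 0.614% higher. At an unadjusted p under 0.05, 9 retained tiles were higher, and limma on log2 ratios called 0. Of matched lost tiles, 95 of 466 were lower and 3 higher, and of MEF-high tiles 17.5% were lower and 0.456% higher. The median difference was -4.01 points over retained tiles, -13.1 points over matched lost tiles and 0.305 points over all tiles. All 10 lower tiles lay outside the 208-base array, and over the whole array 14 of 1733 tiles were lower (0.808%). With library type as a term, 0.842% of retained tiles and 3.34% of all tiles were lower. With no minimum difference, 21.1% of retained tiles were lower and 0.421% higher, where the whole table had 20.8% and 24.6% and MEF-high tiles 41.2% and 0.977%. The share of lower retained tiles was then close to that of all tiles and below that of MEF-high tiles. Of those lower retained tiles, 99 of 100 lay outside the 208-base array, and over the whole array 87 of 1733 tiles were lower (5.02%).

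On chromosome 2 from 153670001 to 153671000 (8 CpGs), the level was 49.1 and 48.0% in iPSC, against 94.7 and 82.0% in male ESC, a difference of -39.8 points (adjusted p = 0.00208). The iPSC samples were below all ESC samples there, but female MEF 3 and 4, which share the iPSC library type, had 55.2 and 62.4%, against 81.3 and 88.6% in female MEF 1 and 2. The tile on chromosome 14 from 54308001 to 54309000 (6 CpGs) had 59.3% in both iPSC samples, against 95.2 and 98.7% in male ESC (adjusted p = 0.000596). There too the MEF libraries of the iPSC type were lower, at 75.6 and 74.5%, against 92.7 and 83.3%. The tile on chromosome 5 from 23208001 to 23209000 (20 CpGs, from another family) had 68.1 and 64.8% in iPSC, against 95.4 and 96.6% in male ESC (adjusted p = 0.00021). Its female MEF levels were again lower in the iPSC library type, by less, at 91.8 and 90.5%, against 95.1 and 92.3% in female MEF 1 and 2.

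Between iPSC and SSEA1+ cells, 47 retained tiles were lower (9.89%) and 7 higher (1.47%) in iPSC, where the whole table had 20.1% lower and 3.68% higher. Of matched lost tiles 443 were lower (95.1%) and 1 higher, and of MEF-high tiles 40.7% were lower and 1.28% higher. The lower retained tiles included 35 of 201 in the 208-base array (17.4%) and 12 of 274 outside it (4.38%), and all 7 higher tiles lay outside it. Over the whole 208-base array 299 of 1733 tiles were lower (17.3%), so its retained tiles were called at about the share of the array. The median difference was -16.5 points over retained tiles of the array, -4.86 points over the other retained tiles and 1.47 points over all tiles. With library type as a term, 5.47% of retained tiles were lower and 0.632% higher, where the whole table had 14.8% and 1.07%. With no minimum difference, 55.4% of retained tiles were lower and 2.74% higher, where the whole table had 31.2% and 35.8% and MEF-high tiles 62.8% and 1.72%. The share of lower retained tiles was then above that of all tiles and below that of MEF-high tiles. The lower retained tiles were 196 of 201 in the 208-base array and 67 of 274 outside it, and over the whole array 1554 of 1733 tiles were lower (89.7%).

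The largest lower call among named tiles was on chromosome 1 from 138048001 to 138049000 (6 CpGs). It had 38.5 and 38.2% in iPSC, against 85.5 and 87.2% in SSEA1+ cells (adjusted p = 8.34e-05). Male ESC had 64.4 and 66.7% there, and female ESC 72.2, 70.9, 75.7 and 74.1%, so that iPSC stood below both.

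A few retained tiles had their lowest level in SSEA1+ cells. The tile on chromosome 14 from 77309001 to 77310000 (3 CpGs) had 73.6 and 80.7% in iPSC, against 36.1 and 32.7% in SSEA1+ cells (adjusted p = 0.000159). SSEA1- cells stood at 62.7 and 53.3%, and all MEF and ESC samples at 69.5% or more. The tile on chromosome 11 from 67358001 to 67359000 (4 CpGs) had 88.5 and 85.2% in iPSC, against 47.6% in both SSEA1+ samples (adjusted p = 0.00476). The MEF libraries of the iPSC type stood at 89.3 and 88.2% at this chromosome 11 tile, the highest of the MEF libraries. Female MEF 1 and 2 stood at 69.1 and 70.5% there, and male MEF at 74.4 and 83.7%. SSEA1- cells stood at 92.2 and 72.7%, and neither tile passed the test between SSEA1+ and SSEA1- cells (adjusted p = 0.196 and 0.211).

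Between SSEA1+ and SSEA1- cells, 2 retained tiles were lower (0.421%) and 0 higher in SSEA1+, where the whole table had 0.793% lower and 0.516% higher. At an unadjusted p under 0.05, 12 retained tiles were higher, and limma on log2 ratios called 1 lower and 0 higher. With library type as a term, 1.05% were lower and 0.421% higher, where the whole table had 1.20% and 0.832%. The count of lower tiles depended on single libraries, from 0% without SSEA1- replicate 2 to 1.25% without SSEA1+ replicate 1. The tile on chromosome 19 from 58520001 to 58521000 (5 CpGs) had 54.5 and 0% in SSEA1+, against 79.3 and 95.6% in SSEA1- cells (adjusted p = 0.0479). The second SSEA1+ value rests on 21 reads, and 0 methylated reads of 21 allow a level of up to 14.3%. The tile on chromosome 6 from 30608001 to 30609000 (5 CpGs) had 75.9 and 29.2%, on 79 and 168 reads, in SSEA1+, against 86.9 and 86.1% in SSEA1- cells (adjusted p = 0.0226). In both tiles, SSEA1+ replicate 2 was far lower than replicate 1.

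Against MEF, on which the rule rests, calls are a description. Of retained tiles, 120 were lower (25.3%) and 3 higher in male ESC than in male MEF, where the whole table had 18.9% lower and 3.80% higher. Much of the whole table is not high in MEF, and of MEF-high tiles 35.6% were lower and 0.384% higher. Of the 120 lower tiles, 118 lay in the 208-base array, and outside it 2 of 274 were lower. The 118 were 58.7% of the retained tiles of the array, against 888 of 1733 tiles over the whole array (51.2%). In iPSC against female MEF, 56 retained tiles were lower (11.8%) and 1 higher, where the whole table had 23.0% lower and 2.55% higher, and 47 of the 56 lay in the array. Of MEF-high tiles, 45.7% were lower and 0.0320% higher. With library type as a term, 0% of retained tiles were higher, where the whole table had 2.46%. With no minimum difference, 46.1% of retained tiles were lower and 2.53% higher in male ESC. The whole table then had 27.8% and 10.6%, and MEF-high tiles 48.7% and 2.42%. In iPSC 68.8% of retained tiles were lower and 1.26% higher, where the whole table had 40.4% and 33.9% and MEF-high tiles 79.9% and 0.456%. Of matched lost tiles, 436 were lower in male ESC and 462 in iPSC.

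Retained tiles with the most CpGs all belonged to the array. On chromosome 7 from 5227001 to 5228000 (29 CpGs, 70 to 1269 reads per sample), the level was 74.8 and 68.3% in iPSC, 73.5, 70, 78.8 and 73.0% in female ESC and 72.3% in both male ESC samples. It was 87.1 and 91.8% in SSEA1+ cells, 86.9 and 91.3% in SSEA1- cells, 87.3 to 92.1% in female MEF, and 92.1 and 91.0% in their male counterparts. The iPSC and ESC samples did not overlap with the others.

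Retained tiles with the highest levels outside the rule lay in no family. On chromosome 13 from 42251001 to 42252000 (6 CpGs), the level was 92.3 and 88.5% in iPSC, 95.8 and 95.7% in male ESC and 100% in all 4 SSEA1+ and SSEA1- samples. On chromosome 6 from 128014001 to 128015000 (5 CpGs), it was 96.2 and 91.4% in iPSC, 94.7 and 98.8% in male ESC, 98.4 and 95.2% in SSEA1+ and 100% in both SSEA1- samples. Female ESC stood below male ESC at both tiles, at 85.8, 81.4, 83.7 and 94.1% on chromosome 13 and at 82.7, 84.7, 84.4 and 90.4% on chromosome 6. The lowest sample at the chromosome 6 tile was male MEF 2, at 79.4%.

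Retained tiles rarely stood side by side. Runs of 2 or more adjacent retained tiles numbered 9 and held 20 tiles. The longest was 4 tiles on chromosome 12 from 5062001 to 5066000, with 20 to 27 CpGs each and up to 6612 reads in a sample. Its second tile (5063001 to 5064000) had 88.2% in both iPSC samples, 74.1, 77.2, 80.6 and 81.1% in female ESC, 93.1 and 95.7% in SSEA1+ cells, and 94.8 and 90.9% in male ESC. In each of the 4 tiles, every iPSC and male ESC sample was above every female ESC sample.

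CpGs in this run stood 31 bases apart more often than at any other distance, for 13 of 22, 14 of 26, 9 of 19 and 15 of 26 neighbouring pairs. In the whole series, 6 autosomal tiles with fewer than 30 CpGs held at least 3 such distances. All 6 were retained, and all lay on chromosome 12 between 5057001 and 5066000, so they are 1 locus and not 6 separate cases. This search was made after the distances between CpGs had been seen.

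Tiles beside retained tiles and tiles beside lost tiles stood at different levels. Of 98 measured tiles next to a retained tile, 20 were retained and 0 were lost, and they averaged 73.5% in iPSC, 69.9% in female ESC and 76.2% in male ESC. Of 130 measured tiles next to a matched lost tile, 55 were lost and 0 retained, and they averaged 28.8% in iPSC, 22.8% in female ESC and 40.9% in male ESC. Next to retained tiles outside the array, 14 of 41 tiles were retained, and 6 of these 14 are the chromosome 12 tiles of 1 locus given above. Next to retained array tiles, 6 of 57 were retained (10.5%), near the 11.7% of all MEF-high tiles of the array (201 of 1724). Among MEF-high tiles in no family, 2.95% were retained, so both counts have different base shares. Of the tiles next to matched lost tiles, 42.3% were lost. The 212-base array held 50.4% of matched lost tiles, and 38.2% of its MEF-high tiles were lost, against 9.04% in no family. That whole array averaged 27.9% in iPSC, 27.4% in female ESC and 40.4% in male ESC, near the levels of these neighbours. The number of neighbours that lay in it is not given here.

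A single retained tile had a lost tile as its nearest measured tile within 5 kb. On chromosome 2, the retained tile from 121376001 to 121377000 (7 CpGs) had 90 and 90.6% in iPSC and 94.96 and 97.9% in male ESC. The lost tile from 121374001 to 121375000 (8 CpGs) had 33.9 and 30.1% in iPSC and 44.5 and 60.8% in male ESC. In MEF the levels were 88.7 to 99.0% at the retained tile and 78.3 to 88.2% at the lost tile.

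Single CpGs of retained tiles were rarely below 30%. Of 1458 CpGs read in all samples, 78.3% had 70% or more and 2 were below 30% in female ESC, which chose the tiles. In iPSC these were 74.6% and 3 CpGs, and in male ESC 75.9% and 1 CpG. The share at 70% or more was 52.1% in male ESC for the array, where 703 CpGs were read, and 98.0% for the 755 CpGs outside it. In iPSC this share was 56.8% for the array and 91.1% outside it. For matched lost tiles, 1.03% of 1362 CpGs reached 70% in iPSC and 8.66% in male ESC.

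Retained tiles had a median of 9 CpGs, as had MEF-high tiles, and matched lost tiles had 13. The median was 15 for retained tiles of the 208-base array and 7 for those outside it. Retained tiles lay on all 19 autosomes. The retained share of MEF-high tiles was highest on chromosome 13 (36 of 539, 6.68%), followed by chromosome 12 (6.13%) and chromosome 16 (5.93%), and lowest on chromosome 5 (19 of 900, 2.11%). Outside the array, chromosome 13 had 28 retained tiles, or 6.25% of its MEF-high tiles outside the array, and the other chromosomes 1.56 to 4.88%. Tiles near each other share sequence and are not independent, so no test was made.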

How the data were processed

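Reduced representation bisulfite sequencing was read in 18 mouse samples of 7 groups, taken with their numbers from the labels. Per CpG and strand, the authors deposited the methylated and the total read count, which were used unchanged, and a score derived from both, which was not used. The submitters' processing notes name build mm9, and positions are counted from 1. The sources used here give no aligner, methylation caller or filter.

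Strands were added, CpGs used at 5 or more reads, and methylated and total reads summed in 1 kb tiles with at least 3 such CpGs in every sample. The CpG limit of 30 counts CpGs that reach 5 reads in at least 1 sample. All 33545 tiles were fitted by a quasi-binomial logistic model with a mean for each of the 7 groups, with dispersion moderated as by limma's squeezeVar (limma 3.58.1) and held at 1 or more, F tests and Benjamini-Hochberg adjustment. Single values per sample were compared by 2-sided exact tests. In simulated data with 100 tiles lowered by 25 points and 100 by 40, the model recovered 36 and 87 for iPSC against male ESC with 0 false calls, 45 and 88 for SSEA1+ against SSEA1- with 2, and 32 and 81 for iPSC against SSEA1+ with 6. All other simulated tiles had 1 mean over the 18 samples. In the data, 3073 tiles were called lower in iPSC than in male ESC, so the adjustment acts differently and these counts do not carry over to the calls above. The interval given is Wilson's, the limit for 0 methylated reads is 3 counts of the total, and both cover counting error only. Reads are not counted by molecular identifiers.

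The members, lists and tests were chosen with earlier results of these data known. Tiles are named by a rule, 1 per 100 kb and none on chromosome 18: the 3 highest and 3 lowest over the 8 samples outside the member rule, the 3 with the most CpGs and with the most reads, those just inside and outside the threshold, the 3 largest non-overlapping calls in each direction, the longest run, and tiles beside a lost tile. Some of these are printed. Gene lists could not be used without an annotation on mm9. Alternatives were minimum reads, thresholds, CpG weighting, shared CpGs, shifted tiles, matching, limma, a replicate block, library type as a term, no minimum difference and leaving out each sample. Alternatives for the spacing families, and the arrays left out, were added after seeing the data. Software was R 4.3.3 and Python 3.11.15 with networkx 3.6.1, scipy 1.17.1, pandas 2.3.3 and numpy 2.4.6.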

Additional observations from a re-analysis of the deposited data

Results flagged for a closer look

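In female MEF, retained tiles outside the 208-base array averaged 88.4% in female MEF 2, farther from the other 3 samples (89.3 to 89.4%) than the test for an outlying sample allows. That library is the only female MEF library of type B. Of 38 groups of 4 samples looked at, this was the 1 that stood out, chance gives about 1 in 20, and the sets of tiles overlap. The tiles were chosen on MEF levels.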

How the results depend on the processing

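Of 191 values recomputed under alternatives that leave out no sample, 144 kept their direction and side of the threshold or moved by less than 1.5 times. The causes of the changes below were not tested. At 10 reads per CpG there were 52 retained tiles, 7.69% in the 208-base array, with 0% lower in SSEA1+ against SSEA1-, 3.85% lower in iPSC against SSEA1+, 3.85% lower and 3.85% higher in male ESC against male MEF, and 5.77% lower and 0% higher in iPSC against female MEF. At 3 reads there were 793 retained tiles, with 0.126% higher in iPSC against male ESC and 0.757% lower in SSEA1+ against SSEA1-. At thresholds of 80% and 20% there were 24 retained tiles, 0% in the array, and the difference over 8 samples was 31.6 points (exact sign-flip test, adjusted p = 0.109). With CpGs weighted equally, 0.676% were lower and 0.225% higher in SSEA1+ against SSEA1-. With only the CpGs of all samples, 1.26% were lower in iPSC against male ESC, 16.4% lower and 2.52% higher in iPSC against SSEA1+, 0% higher in male ESC against male MEF, 18.6% lower in iPSC against female MEF, and 24.6% of the 212-base array lower in female against male ESC. Tiles shifted by 500 bases gave 1.05% lower in SSEA1+ against SSEA1-, and limma 0.211%. With library type as a term, 0.842% were lower in iPSC against male ESC, 1.05% lower and 0.421% higher in SSEA1+ against SSEA1-, 5.47% lower and 0.632% higher in iPSC against SSEA1+, and 0% higher in iPSC against female MEF. With no minimum difference, 21.1% were lower and 0.421% higher in iPSC against male ESC, 55.4% and 2.74% in iPSC against SSEA1+, 46.1% and 2.53% in male ESC against male MEF, 68.8% and 1.26% in iPSC against female MEF, and in female against male ESC 6.64% of the 208-base array and 53.3% of the 212-base array were lower. The female minus male ESC difference of the 208-base array turned positive at 0.151 points with CpGs weighted equally, 0.139 with shifted tiles, 0.388 with families of 4 distances, 1.004 with families in 60 or more tiles, 0.908 with families linked at 50%, and 1.57 over tiles of 15 or more CpGs. Outside both arrays, the difference over 8 samples was 25.8 points.

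Leaving out each sample in turn gave 474 to 780 retained tiles, 32.2 to 50.4% of them in the array, and a difference of 20.3 to 27.3 points over the samples outside the rule. With 7 of those samples its adjusted exact p was 0.0571 in each case, the smallest value that 7 samples allow. The other differences were 39.7 to 43.2 points for iPSC and male ESC minus SSEA1+ and SSEA1-, 8.58 to 10.6 for iPSC minus male ESC, and 1.499 to 3.20 for SSEA1+ minus SSEA1-. Lower and higher calls were 1.68 to 2.65% and 0 to 0.203% in iPSC against male ESC, 0 to 1.25% and 0 to 0.210% in SSEA1+ against SSEA1-, 9.04 to 11.7% and 1.17 to 2.09% in iPSC against SSEA1+, 18.9 to 29.3% and 0.385 to 1.05% in male ESC against male MEF, and 10.1 to 15.7% and 0 to 0.419% in iPSC against female MEF. In female against male ESC, 2.01 to 2.75% of the 208-base array and 10.99 to 14.04% of the 212-base array were lower, and the difference of the 208-base array was -0.213 to 0.348 points. With 1 sample left in a group, that sample is assumed to vary like the others.

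With the replicate number as a block, lower calls in SSEA1+ against SSEA1- went to 0%, and no other share moved by over 1.5 times. Deviations of same-numbered samples correlated at -0.0176 to 0.0342, so the numbers were not taken as pairs.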
